A study of Mus musculus with 16 samples.

Results

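The comparison described here sets mouse dendritic cells that had been given Lactobacillus acidophilus NCFM for 10 h against control cells taken at the same time. It rests on 5 of the 16 arrays of the series, 3 of NCFM cells and 2 of control cells, chosen by the treatment and time in their titles. The cells of all groups were grown for 8 days from the bone marrow of C57BL/6 mice in medium with GM-CSF and were harvested as non-adherent, immature cells. They were then kept in fresh medium with GM-CSF, and the NCFM group received the bacteria at 10 µg/ml. The labels give no bacterial treatment for the control group, and no genetic change in either group. Of 45101 probe sets, the 34945 that name 1 gene were used, which gave 18193 genes. Each value is a deposited intensity on a linear, arbitrary scale.

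Dendritic cells take up microbes in tissues such as the gut wall and show pieces of them to T cells. Immature cells are built for uptake. Contact with bacterial cell wall or nucleic acids through Toll-like and cytosolic receptors makes them secrete cytokines, carry more co-stimulatory molecules and often release type I interferon, which acts back on the same cells through its receptor. L. acidophilus NCFM is a gram-positive gut bacterium sold as a probiotic.

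The 5 arrays had medians of 164 to 165 and first quartiles of 104 to 107. The number of arrays limits the precision. The first principal component held 78.9% of their variance, and the NCFM arrays lay at -17.5, -33.5 and -38 on it, against 53.5 and 35.5 for the control arrays. The array numbered 1 stood apart in each group. Xist, transcribed from the inactive X chromosome, was at 245 on NCFM array 1, against 5232 and 4884 on NCFM arrays 2 and 3. In control cells Xist was at 252 on array 1, against 7237 on array 2. Y-linked Eif2s3y ran the other way, at 1097, 66 and 69 on the NCFM arrays and 953 and 66 on the control arrays. Both groups hold such an array, so changes were also computed between arrays of the same number. H2-Aa and Cd74, the class II antigen-presentation genes, are among the dendritic cell markers. H2-Aa had intensities of 15309, 16798 and 16093 with NCFM, against 15670 and 16659 in control cells. Summed markers in control cells reached 66797 for dendritic cells, 91916 for macrophages and monocytes and 54472 for neutrophils. The markers alone therefore do not settle the cell type. Itgax, which encodes CD11c, had 3135, 2730 and 2371 with NCFM, against 4830 and 3606 in control cells. Siglech, a marker of plasmacytoid dendritic cells, and Cd3g, of T cells, were near or under the array medians, at 136 to 147 against 120 to 136, and 85 to 92 against 85 to 90. Of 7 plasmacytoid markers 2 rose, Bst2 and Tcf4, as given with the other marker sums below. In bulk RNA, fewer cells of a type and less RNA per cell cannot be told apart.

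Of 18193 genes, 4488 passed the test (24.7%), with limma and an adjusted p under 0.05, and they are called genes below. Among them 1493 were higher in NCFM cells (8.21%) and 2995 were lower (16.5%). Control 10 h replicate 1 bears on this count, since 2134 genes were called without it. Calls that held with each of the 5 arrays left out numbered 551 higher (3.03%) and 1251 lower (6.88%). Every called gene changed in the same direction between the arrays numbered 1 and between those numbered 2. The call uses these same arrays, so this is not a separate test. The lower share was 66.7% of the calls as deposited, 50.1% after quantile normalization and 89.2% after centring on spike-in probe sets, where the median gene changed by -0.24 on the log2 scale, against 0.01 as deposited.

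Ptgs2, the inducible cyclooxygenase that starts prostaglandin synthesis, had intensities of 6132, 7171 and 7073 on the NCFM arrays, against 102 and 136 on the control arrays. Ifit1bl1, an interferon-induced gene close in sequence to Ifit1, had 11894, 14784 and 16272 with NCFM, against 166 and 413 in control cells. Cxcl10, a chemokine that draws activated T cells, had 15349, 18390 and 20370 with NCFM, against 264 and 742 in control cells. In none of them did the groups come near each other, and the changes on the log2 scale were 5.85 ± 0.31 (SE), adjusted p = 8.92e-07 for Ptgs2, 5.76 ± 0.57 (SE), adjusted p = 3.2e-05 for Ifit1bl1 and 5.34 ± 0.49 (SE), adjusted p = 1.97e-05 for Cxcl10. Ifit2, which binds RNA and restrains translation, had 10289, 16182 and 17892 with NCFM, against 188 and 697 in control cells. It rose by 5.31 ± 0.69 (SE), adjusted p = 0.000205. Such folds start from dim control values, and 10 of the 30 largest rises had both control arrays at or below the median gene. With the percentile 5 of each array subtracted, the change of Ptgs2 was 7.06.

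At the other end stood Ccr2 and Asgr2. Ccr2, the receptor through which CCL2 draws monocytes out of the marrow, had 923, 406 and 642 on the NCFM arrays, against 5104 and 5060 on the control arrays. The control arrays were within a few percent of each other and the NCFM arrays all far below them. Its change was -3.03 ± 0.36 (SE), adjusted p = 0.000103, or -2.47 between the arrays numbered 1 and -3.64 between those numbered 2. Asgr2, a subunit of the asialoglycoprotein receptor that takes up galactose-bearing proteins, had 405, 160 and 142 with NCFM, against 4868 and 731 in control cells. Its change was -3.17 ± 0.90 (SE), adjusted p = 0.0227. Between the arrays numbered 1 the change was -3.59, and between those numbered 2 it was -2.19. With the replicate number as a block in the limma fit the adjusted p was 0.00112. Without the block the call rested on single arrays. The adjusted p was 0.068 without NCFM 10 h replicate 2, 0.074 without its replicate 3, and 0.299 when control 10 h replicate 1 was left out.

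The promoters of these 6 genes are printed here because they had the 4 largest rises and the 2 largest falls among genes with a listed promoter. Each window runs from 250 bases before to 50 after the start of a transcript, 5′ to 3′ on the gene's strand, from RefSeq on GRCm38.p6. Capitals mark matches on either strand to 5 motifs: the core of the interferon-stimulated response element GAAANNGAA, the last 9 letters of an NF-kB site GGNNNTTCC, a pair of heat shock units GAANNTTC, a sterol regulatory element TCACNCCAC and an E-box CACGTG. In these windows no matches overlap except 1 NF-kB match of Cxcl10 that reads as a match on either strand.
Ptgs2, chr1:150099781-150100080, plus strand: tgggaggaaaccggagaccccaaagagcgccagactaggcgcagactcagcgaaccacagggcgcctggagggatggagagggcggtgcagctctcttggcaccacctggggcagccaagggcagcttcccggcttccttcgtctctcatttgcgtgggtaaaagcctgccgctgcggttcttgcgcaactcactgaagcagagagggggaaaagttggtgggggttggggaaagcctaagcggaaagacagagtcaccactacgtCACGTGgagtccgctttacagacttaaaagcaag
Ifit1bl1, first window, chr19:34599378-34599677, minus strand: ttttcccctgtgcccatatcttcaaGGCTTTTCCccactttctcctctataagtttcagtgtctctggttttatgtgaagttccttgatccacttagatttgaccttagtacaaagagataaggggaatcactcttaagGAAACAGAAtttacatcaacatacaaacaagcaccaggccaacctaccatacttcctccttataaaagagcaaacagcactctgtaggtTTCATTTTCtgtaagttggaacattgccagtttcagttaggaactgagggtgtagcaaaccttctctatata
Ifit1bl1, second window, chr19:34601919-34602218, minus strand: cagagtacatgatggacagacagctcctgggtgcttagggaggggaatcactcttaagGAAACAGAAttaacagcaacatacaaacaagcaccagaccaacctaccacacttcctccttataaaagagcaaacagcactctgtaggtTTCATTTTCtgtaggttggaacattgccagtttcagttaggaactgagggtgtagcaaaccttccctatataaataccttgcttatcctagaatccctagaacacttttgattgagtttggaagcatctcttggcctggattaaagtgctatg
Cxcl10, chr5:92348840-92349139, minus strand: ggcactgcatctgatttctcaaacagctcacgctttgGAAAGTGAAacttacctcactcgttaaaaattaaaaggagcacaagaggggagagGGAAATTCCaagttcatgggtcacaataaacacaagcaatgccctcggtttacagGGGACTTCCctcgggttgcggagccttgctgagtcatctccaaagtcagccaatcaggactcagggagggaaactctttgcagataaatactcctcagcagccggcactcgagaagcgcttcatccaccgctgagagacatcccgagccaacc
Ifit2, first window, chr19:34550444-34550743, plus strand: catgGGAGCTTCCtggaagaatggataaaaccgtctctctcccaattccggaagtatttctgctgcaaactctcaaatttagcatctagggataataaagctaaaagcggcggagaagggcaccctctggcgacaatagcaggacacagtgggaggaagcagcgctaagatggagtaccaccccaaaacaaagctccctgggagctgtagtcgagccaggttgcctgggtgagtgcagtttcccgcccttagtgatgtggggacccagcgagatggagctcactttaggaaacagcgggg
Ifit2, second window, chr19:34550838-34551137, plus strand: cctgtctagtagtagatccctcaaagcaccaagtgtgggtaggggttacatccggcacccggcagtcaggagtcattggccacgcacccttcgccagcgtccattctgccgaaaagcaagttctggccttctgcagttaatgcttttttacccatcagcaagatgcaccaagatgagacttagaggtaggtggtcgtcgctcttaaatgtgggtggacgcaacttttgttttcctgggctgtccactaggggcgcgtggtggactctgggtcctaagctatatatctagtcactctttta
Asgr2, chr11:70092394-70092693, plus strand: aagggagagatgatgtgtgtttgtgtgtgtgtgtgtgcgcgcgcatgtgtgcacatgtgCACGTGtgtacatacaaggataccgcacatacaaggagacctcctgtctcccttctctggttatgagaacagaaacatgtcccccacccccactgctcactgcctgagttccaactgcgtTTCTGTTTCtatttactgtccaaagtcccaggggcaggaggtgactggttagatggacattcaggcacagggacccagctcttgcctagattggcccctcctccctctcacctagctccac
Ccr2, chr9:124101933-124102232, plus strand: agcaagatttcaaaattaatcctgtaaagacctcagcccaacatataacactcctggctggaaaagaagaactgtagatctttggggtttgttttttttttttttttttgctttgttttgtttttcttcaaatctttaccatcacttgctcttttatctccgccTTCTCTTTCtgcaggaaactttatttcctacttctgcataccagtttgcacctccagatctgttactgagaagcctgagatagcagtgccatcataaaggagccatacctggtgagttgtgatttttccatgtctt
The Cxcl10 window holds a response core that begins 213 bases before the start and NF-kB letters that begin 158 and 103 bases before it. Both Ifit1bl1 windows hold the response core once on each strand, and the first also NF-kB letters. The first Ifit2 window holds NF-kB letters, the Ptgs2 window an E-box after the start, and the Asgr2 window an E-box and a response core on the opposite strand. The Ccr2 window holds a response core on the opposite strand, and the second Ifit2 window none of these letters. A match is a description of the letters and not a site in use.

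Genes called and at least 2-fold higher numbered 477 (2.62%), and those called and at least 2-fold lower 650 (3.57%). The response core was in 7.37% of 18009 windows of measured genes, in 17.1% of the 486 windows of the higher genes and in 5.97% of the 687 windows of the lower genes. The NF-kB letters were in 20.4% of all windows, 24.3% of the higher and 20.5% of the lower. The E-box was in 8.74% of all, 7.82% of the higher and 12.7% of the lower. For the sterol regulatory element the shares were 1.21%, 1.03% and 1.31%, and for the pair of heat shock units 6.3%, 7.41% and 6.26%. These shares, and those of single lists below, describe letters in short windows, and no test was made of them. The letters were shortened after shares of longer forms of some motifs had been seen.

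Further down the list of 30 largest rises came chaperone, oxysterol, protease and secreted factor genes. Hspa1a, an inducible cytosolic chaperone of the Hsp70 family, had 4231, 5794 and 4902 on the NCFM arrays, against 181 and 227 on the control arrays. Its near-identical neighbour Hspa1b had 7816, 9229 and 9215 with NCFM, against 402 and 488 in control cells. The probe sets may read RNA of either gene, so their changes, 4.61 ± 0.34 (SE), adjusted p = 5.21e-06 for Hspa1a and 4.30 ± 0.27 (SE), adjusted p = 1.94e-06 for Hspa1b, are not separate results. Ch25h, which makes 25-hydroxycholesterol, an oxysterol with antiviral and cell-guiding roles, had 3160, 5567 and 7509 with NCFM, against 306 and 185 in control cells. It rose by 4.42 ± 0.33 (SE), adjusted p = 5.21e-06. Inhba, which encodes the subunit of activin A, had 8741, 11781 and 10107 with NCFM, against 721 and 625 in control cells. Its change was 3.92 ± 0.40 (SE), adjusted p = 3.57e-05, while a dimmer probe set of Inhba gave 0.19.

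Cd40, the receptor through which helper T cells license dendritic cells, had 7931, 7120 and 7898 on the NCFM arrays, against 452 and 301 on the control arrays. Its change of 4.37 ± 0.20 (SE), adjusted p = 4.92e-07, was matched by 2 further probe sets of Cd40 at 4.57 and 4.22. Irf7, the factor that amplifies type I interferon transcription, had 8429, 9362 and 9718 with NCFM, against 439 and 856 in control cells. Cd69, which holds leukocytes in lymphoid tissue, had 5255, 7441 and 8596 with NCFM, against 568 and 408 in control cells. Both lay far above control cells on all 3 arrays, with changes of 3.90 ± 0.34 and 3.85 ± 0.27. Calhm6, a channel-like membrane protein induced by interferon gamma in macrophages, rose by 4.56, the DNA-binding PYHIN gene Ifi213 by 4.37, the OAS-like gene Oasl1 by 4.36, the Schlafen gene Slfn4 by 4.30 and the serine protease gene Htra4 by 4.27. Fabp3, a fatty acid carrier, rose by 3.82, the unnamed gene model Gm9706 by 3.73 and the neutrophil-attracting Cxcl5 by 3.62. A second probe set of Fabp3 gave 0.09. Of the 60 genes with the largest changes, 58 kept their call with each of the 5 arrays left out, all but Asgr2 and Nrep. Of 13 named rises with further probe sets, no further set had the other sign.

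Vsir, Clec4a2, Arrb1 and Cnr2 were among the 30 largest falls. Vsir, which encodes VISTA, an inhibitory ligand and receptor between myeloid and T cells, had 326, 352 and 366 on the NCFM arrays, against 1310 and 2165 on the control arrays. Its change was -2.28 ± 0.43 (SE), adjusted p = 0.00234. Clec4a2, an inhibitory C-type lectin of dendritic cells, had 815, 827 and 888 with NCFM, against 3710 and 4569 in control cells. Arrb1, a beta-arrestin that ends signalling by receptors coupled to G proteins, had 486, 366 and 268 with NCFM, against 1560 and 1711 in control cells. Cnr2, the cannabinoid receptor of immune cells, had 139, 117 and 124 with NCFM, against 549 and 583 in control cells, so that NCFM values were near the first quartile of the arrays. The groups were apart in each of these, as the choice of the 30 falls requires. The changes were -2.29 ± 0.20 for Clec4a2, -2.17 ± 0.21 for Arrb1 and -2.16 ± 0.15 for Cnr2.

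Ramp1, which forms the CGRP receptor, changed by -2.24, Prkar2a, a regulatory subunit of protein kinase A, by -2.31, and Ivns1abp, which binds actin and an influenza protein, by -2.35. Otulinl changed by -2.33, Tifab, a relative of the TRAF6 adaptor TIFA, by -2.17, Selenbp1, a selenium-binding methanethiol oxidase, by -2.15, Ap1s2, a clathrin adaptor subunit, by -2.21, and Rcbtb2 by -2.20. Ranks 11 to 30 also held 2410002F23Rik at -2.30, Tmem107 at -2.22, Prxl2c at -2.17, Sbk1 at -2.07 and Clec4b1 at -2.06, and Scd2, Hadh and Iars, which are given with their pathways. In 3 of 19 falls with further probe sets, Prkar2a, Tmem107 and Ap1s2, a dimmer set had the other sign. Ramp1 and Rcbtb2 also had sets near no change, at -0.29 and -0.06 for Ramp1 and at -0.07 and -0.05 for Rcbtb2.

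**Figure D1:**
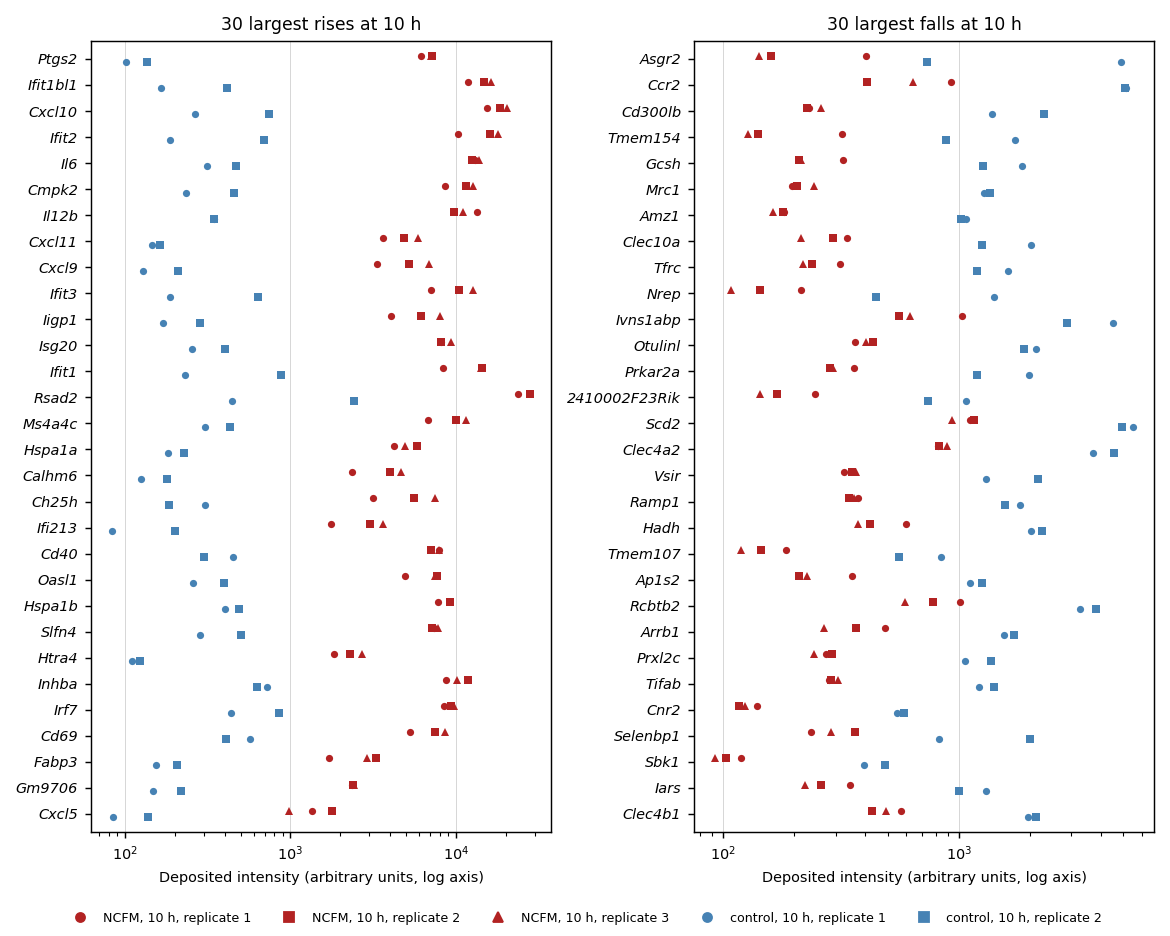
Intensity (horizontal, log axis, arbitrary units) of the 30 largest rises and the 30 largest falls on each of the 5 arrays, NCFM in red above control in blue, with the marker shape giving the replicate. The 60 genes were taken from called genes whose NCFM points all lie to one side of the control points. Ptgs2 leads the rises at 6132 to 7171 in NCFM cells, against 102 and 136 in control cells.

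The gene lists here and below were chosen with earlier results of these data known, so their counts are descriptions. Over all genes 8.21% rose and 16.5% fell. Genes that attach ADP-ribose, ubiquitin or the ubiquitin-like protein ISG15 mostly rose. Of 27 measured genes for ADP-ribosylation, ISG15 conjugation and TRIM proteins, 24 rose and 1 fell, with a median change of 1.62 against 0.01 over all genes, and 19 of the rises held with each array left out. Usp18, which removes ISG15 and blocks the interferon receptor, had 11920, 12433 and 13532 on the NCFM arrays, against 914 and 1410 on the control arrays. Herc6, the mouse ligase that attaches ISG15, had 4087, 4547 and 5678 with NCFM, against 514 and 561 in control cells. Ube2l6, the conjugating enzyme of the same chain, had 1833, 1359 and 1601 with NCFM, against 298 and 383 in control cells. All 3 were above control on every array, by 3.47 ± 0.26 (SE), adjusted p = 5.21e-06 for Usp18, 3.14 ± 0.18 (SE), adjusted p = 1.19e-06 for Herc6 and 2.23 ± 0.17 (SE), adjusted p = 5.21e-06 for Ube2l6. Uba7, the activating enzyme of the chain, rose by 2.05. The ADP-ribosyltransferase genes Parp14, Parp12, Parp11 and Parp9 rose by 2.42, 2.25, 2.08 and 1.62, and Dtx3l, the ligase that partners Parp9, by 1.80. Trim21, a cytosolic antibody receptor, rose by 2.14, and Rnf31, a subunit of the linear ubiquitin ligase, by 1.00. Trim30a and Trim30d, close paralogs whose probe sets may share RNA, rose by 1.83 and 2.08.

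Parp1, the nuclear enzyme that responds to DNA breaks, was the member that fell. It had 532, 527 and 515 on the NCFM arrays, against 1191 and 975 on the control arrays, a change of -1.04 ± 0.13 (SE), adjusted p = 0.000175. Trim5 and Trim56 were not called, at -0.26 and 0.03. The response core was in 11 of 25 promoter windows of this list, against 7.37% of all windows.

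Among 25 measured Schlafen, Ms4a and Gimap genes, 13 rose and none fell, and 9 of the rises held with each array left out. Schlafens are interferon-induced regulators of growth and RNA, and Ms4a genes encode membrane proteins of the CD20 family. Slfn4 had 7338, 7171 and 7841 on the NCFM arrays, against 283 and 506 on the control arrays. Slfn5 had 1887, 2372 and 3250 with NCFM, against 249 and 726 in control cells. Slfn1, Slfn2 and Slfn3 rose by less, 1.67, 1.29 and 1.10, against 4.30 ± 0.29 for Slfn4 and 2.52 ± 0.40 for Slfn5. Slfn8 and Slfn9, near-identical in sequence, rose by 2.99 and 2.01, and Ms4a4c by 4.66. None of the 8 Gimap genes, GTPases of lymphocytes, was called, and their changes ran from -0.30 for Gimap1 to 0.14 for Gimap3.

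Secreted cytokines and growth factors rose in 19 of 38 genes and fell in 3, and 12 and 2 were called without control 10 h replicate 1. Il15, which sustains natural killer and memory T cells, had 3173, 2753 and 3034 on the NCFM arrays, against 675 and 744 on the control arrays. Its receptor chain Il15ra, which presents it on the cell surface, had 1674, 2689 and 2976 with NCFM, against 392 and 397 in control cells. Both rose, by 2.07 ± 0.31 (SE), adjusted p = 0.000551 for Il15 and 2.59 ± 0.24 (SE), adjusted p = 1.81e-05 for Il15ra. The interleukin-1 family was spread over several members, with Il1a at 3.15, the genes for IL-36, Il1f9 and Il1f6, at 2.01 and 1.90, and the receptor antagonist Il1rn at 1.87. The interleukin-12 family rose through Ebi3 (1.36) and Il12a (1.25) besides Il12b (5.04), while Il23a was not called at 0.42. Tgfb1, which encodes the suppressive TGF beta, had 1730, 1899 and 1683 with NCFM, against 4762 and 2936 in control cells. It fell, with a change of -1.08 ± 0.20 (SE), adjusted p = 0.00199. Its receptor genes Tgfbr1 and Tgfbr2 were lower as well, at -1.39 and -1.33, and Il16, a CD4 ligand, at -1.14.

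Chemokine genes rose in 14 of 31 measured and fell in none (15 and 1 with the replicate number as a block). Those for monocyte attraction, Ccl2, Ccl7 and Ccl12, rose by 3.29, 3.34 and 3.38. Ccl2 had 12250, 6410 and 7168 on the NCFM arrays, against 1290 and 551 on the control arrays. Its NCFM values were all above its control values, while its receptor gene Ccr2 was among the largest falls. Ccl17 and Ccl22, which encode ligands of CCR4, were not called, at -0.08 and 0.80. Under the block Ccl22 was called (adjusted p = 0.0151). The NF-kB letters were in 11 of 23 chemokine windows (47.8%), against 20.4% of all windows, and the response core in 21.7%, against 7.37%.

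Of 28 measured co-stimulatory and co-inhibitory genes, through which dendritic cells address T cells, 12 rose and 2 fell, with a median change of 0.57. Cd274, which encodes PD-L1, had 6686, 9721 and 10724 on the NCFM arrays, against 1818 and 2235 on the control arrays. Cd200, the ligand of an inhibitory myeloid receptor, had 3108, 3429 and 3634 with NCFM, against 407 and 476 in control cells. Slamf7, a self-binding activating receptor, had 2157, 2833 and 3784 with NCFM, against 429 and 458 in control cells. The control arrays were lower throughout, and the changes were 2.14 ± 0.28 (SE), adjusted p = 0.000218 for Cd274, 2.94 ± 0.21 (SE), adjusted p = 4.1e-06 for Cd200 and 2.68 ± 0.27 (SE), adjusted p = 3.57e-05 for Slamf7. Lgals9, a ligand of TIM-3, and Pvr, which binds DNAM-1 and TIGIT, rose by 1.68 and 1.15. Cd80, Cd83 and Pdcd1lg2 were not called, at 0.94, 0.44 and 0.50.

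In the TNF superfamily 7 of 29 genes rose and 3 fell, and without control 10 h replicate 2 the counts were 6 and 0. With the replicate number as a block they were 10 and 6. Tnfsf10, the death ligand TRAIL, had 1088, 1486 and 1819 on the NCFM arrays, against 171 and 185 on the control arrays. Cd70, the ligand of CD27 on T cells, had 1507, 694 and 645 with NCFM, against 174 and 132 in control cells. Tnfsf9, the ligand of 4-1BB, had 1931, 2015 and 2196 with NCFM, against 617 and 716 in control cells. All 3 passed the test, at 3.01 ± 0.31 (SE), adjusted p = 3.61e-05 for Tnfsf10, 2.53 ± 0.49 (SE), adjusted p = 0.0026 for Cd70 and 1.62 ± 0.16 (SE), adjusted p = 3.43e-05 for Tnfsf9. Tnfrsf9, Tnfsf4 and Fas were not called, at 0.39, 1.09 and 0.49. Under the block Tnfsf4 was called (adjusted p = 0.0174).

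Survival and death genes were called higher in 12 of 33 and lower in 6, or 10 and 3 without control 10 h replicate 1. Their falls were near the 16.5% of all genes. The inflammatory caspase gene Casp4, whose product senses lipopolysaccharide in the cytosol, had 3640, 3546 and 4930 on the NCFM arrays, against 477 and 709 on the control arrays. Zbp1, a sensor of Z-form nucleic acid, had 4716, 3965 and 5013 with NCFM, against 724 and 1198 in control cells. Mlkl, the executioner of necroptosis, had 2161, 2954 and 3237 with NCFM, against 491 and 666 in control cells. Each was above control on every array, at 2.78 ± 0.31 (SE), adjusted p = 8.06e-05 for Casp4, 2.29 ± 0.23 (SE), adjusted p = 3.6e-05 for Zbp1 and 2.26 ± 0.21 (SE), adjusted p = 1.81e-05 for Mlkl. Ripk3, the kinase that activates MLKL, was lower, at -0.82 ± 0.16 (SE), adjusted p = 0.00328. Cflar, which restrains caspase-8, rose by 2.36 and Casp8 by 0.80. Bmf, a pro-death BH3-only gene, and Casp6 fell, with changes of -1.35 and -1.18.

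C-type lectin receptors fell in 7 of 25 genes and rose in 3, with a median change of -0.35. Mrc1, the mannose receptor, had 196, 206 and 244 on the NCFM arrays, against 1282 and 1359 on the control arrays. Clec10a, a receptor for galactose-type sugars, had 334, 294 and 214 with NCFM, against 2017 and 1255 in control cells. Ly75, or DEC-205, a receptor that feeds antigen presentation, had 779, 618 and 529 with NCFM, against 235 and 217 in control cells. The first pair was lower and Ly75 higher on every NCFM array, at -2.62 ± 0.18 (SE), adjusted p = 3.99e-06 for Mrc1, -2.53 ± 0.35 (SE), adjusted p = 0.000311 for Clec10a and 1.49 ± 0.19 (SE), adjusted p = 0.000151 for Ly75. Of 23 CD300, TREM and Siglec genes 2 rose and 4 fell, near the shares of all genes (8.21% higher and 16.5% lower). These counts were 1 and 3 when NCFM 10 h replicate 3 was left out, 0 and 3 for control 10 h replicate 1, and 2 and 7 under the block. Cd300lb and Cd300a, immunoglobulin-like receptors for lipids of dying cells, changed by -2.90 and -1.93. Of 25 Fc gamma, scavenger and apoptotic cell receptors 6 rose and 3 fell, with a median change of 0.24. These falls were below the 16.5% of all genes. The count that rose was 2 without NCFM 10 h replicate 2, 2 without its replicate 3 and 1 when control 10 h replicate 1 was left out, and 5 fell under the block. Scarb1, a lipoprotein receptor, Fcgrt, the neonatal Fc receptor, and Fcrls fell, with changes of -1.58, -1.58 and -1.69, while Fcgr1, the high-affinity IgG receptor, rose by 1.57.

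Markers of other cell types moved beside these results. The summed intensity of 10 neutrophil markers was 17753 to 37687 on the NCFM arrays, against 47996 to 54472 on the control arrays, and 3 of the 10 fell, with Mmp8 at -1.23 ± 0.25 (SE), adjusted p = 0.00375. Leaving out NCFM 10 h replicate 3 left 1 of the 10 lower, as did leaving out control 10 h replicate 2. S100a8 and S100a9, which are in the neutrophil list, were far above the array median in every sample. They had 5288 to 12162 and 4075 to 12909 in NCFM cells, against 14154 to 17997 and 14122 to 16462 in control cells. The sum of 10 macrophage and monocyte markers overlapped, at 54933 to 80387 against 58846 to 91916. For 12 dendritic cell markers it overlapped too, at 59340 to 69057 against 55947 to 66797. Of 7 plasmacytoid dendritic cell markers 2 rose, Bst2 and Tcf4 (for Tcf4 adjusted p = 0.104 without control 10 h replicate 1), and the sum of the 7 was 11095 to 12553 with NCFM, against 2979 to 4134 in control cells. Most of that sum is Bst2, which also answers to interferon, with 9241, 9581 and 10218 with NCFM, against 1732 and 2577 in control cells. The sums of 7 natural killer cell markers (1616 to 1818 against 1293 to 1398), 8 endothelial markers (1989 to 3461 against 1573 to 1655) and 10 stromal markers (1704 to 1730 against 1648 to 1667) were higher with NCFM, and that of 8 B cell markers was lower (1342 to 1437 against 1610 to 1843). In this order 2, 1, 2 and 0 markers were called higher and 1, 0, 0 and 1 lower. Over all genes 8.21% were higher and 16.5% lower. The median changes of the 4 lists were 0.08, 0.09, 0.11 and 0.06. Of their markers 3, 3, 5 and 4 were at or below the array median on all 5 arrays. The sums of T cell, erythroid and mast cell markers overlapped. The part of cell composition in these results was not tested.

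Genes that build ribosomes were lower as a group. Of 40 measured genes for ribosome biogenesis, 31 fell and 1 rose, with a median change of -0.84, and the median was -0.82 between arrays numbered 1 and -0.76 between those numbered 2. Without control 10 h replicate 1, 16 fell. Fbl, the fibrillarin that methylates ribosomal RNA, had 1258, 739 and 707 on the NCFM arrays, against 2906 and 2299 on the control arrays. Tsr1, which matures the small subunit, had 293, 170 and 170 with NCFM, against 828 and 576 in control cells. Pes1, which processes the large-subunit RNA, had 700, 587 and 554 with NCFM, against 1593 and 1376 in control cells. The NCFM arrays were below both control arrays in each, with changes of -1.57 ± 0.29 (SE), adjusted p = 0.00197 for Fbl, -1.76 ± 0.28 (SE), adjusted p = 0.000869 for Tsr1 and -1.28 ± 0.12 (SE), adjusted p = 1.99e-05 for Pes1. The abundant nucleolar proteins followed with Npm1 at -0.95 and Ncl at -0.82, the RNA helicase Ddx21 at -1.15, and Nolc1, Wdr12 and Emg1 at -1.17, -1.41 and -1.34. Noc2l, Rrs1 and Rrp9 were not called, at -0.10, -0.34 and -0.18. The E-box was in 17.9% of the windows of this list, against 8.74% of all windows, and the NF-kB letters in 28.2%, against 20.4%.

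Of 20 cytosolic aminoacyl-tRNA synthetase genes, which charge transfer RNAs with amino acids, 11 fell and 1 rose (5 and 1 without control 10 h replicate 1, and 14 and 2 with the replicate number as a block). Iars, for isoleucine, had 344, 261 and 222 on the NCFM arrays, against 1299 and 998 on the control arrays. Wars, for tryptophan, had 1186, 1263 and 1243 with NCFM, against 821 and 621 in control cells. They ran in opposite directions, -2.07 ± 0.20 (SE), adjusted p = 2.83e-05 for Iars and 0.78 ± 0.11 (SE), adjusted p = 0.00039 for Wars, and Farsb, for phenylalanine, changed by -1.35. Mitochondrial ribosomal protein genes fell in 27 of 64 and rose in none (10 fell without control 10 h replicate 1), with a median of -0.57. Mrps26 had 719, 512 and 490 with NCFM, against 1541 and 1058 in control cells. Its change was -1.18 ± 0.21 (SE), adjusted p = 0.00188, close to Mrpl28 at -1.17 and Mrps35 at -1.07.

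The tricarboxylic acid cycle oxidises acetyl groups in mitochondria. A list of genes for the cycle, pyruvate entry and itaconate, with cytosolic forms, was lower in 22 of 34 and higher in 2, with a median of -0.62. The counts were 12 and 1 without control 10 h replicate 1, and 25 and 1 with the replicate number as a block. Idh1, the cytosolic isocitrate dehydrogenase, had 2162, 1605 and 1545 on the NCFM arrays, against 5139 and 9947 on the control arrays. Idh3g and Idh2, of the mitochondrial forms, changed by -1.44 and -1.18. Idh1 fell on every array, a change of -2.03 ± 0.36 (SE), adjusted p = 0.00164, and the NCFM values lay in a narrow range. Acod1, which diverts an intermediate of the cycle to itaconate, had 15552, 19884 and 20103 with NCFM, against 2053 and 5007 in control cells. It rose by 2.52 ± 0.37 (SE), adjusted p = 0.000505. Aco1, Suclg2, Sdhd and Pdha1 fell, with changes of -1.09, -1.07, -1.03 and -0.90, while Mdh2, Dld and Pcx were not called, at -0.35, 0.04 and 0.03.

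Fatty acid and triglyceride synthesis genes fell in 17 of 31 and rose in 2 (10 and 0 without control 10 h replicate 1). Scd2, a desaturase that makes monounsaturated fat, had 1111, 1161 and 935 on the NCFM arrays, against 5514 and 4914 on the control arrays. Fasn, the fatty acid synthase, had 278, 311 and 283 with NCFM, against 910 and 722 in control cells. Fads1, a desaturase of polyunsaturated fat, had 260, 273 and 268 with NCFM, against 1014 and 1052 in control cells. Each was lower on every NCFM array, at -2.29 ± 0.22 (SE), adjusted p = 2.74e-05 for Scd2, -1.48 ± 0.14 (SE), adjusted p = 2.86e-05 for Fasn and -1.95 ± 0.23 (SE), adjusted p = 0.000117 for Fads1. Lpin1, a phosphatidate phosphatase, and Stard4, a sterol carrier, fell too, with changes of -1.87 and -1.77. The regulator genes Srebf1 and Insig1 were not called, at -0.38 and -0.61. Under the block Insig1 was called (adjusted p = 0.0151). The sterol regulatory element was in 0 of 36 windows of this list, against 1.21% of all windows. The E-box was in 16.7%, against 8.74%, and the NF-kB letters in 11.1%, against 20.4%.

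Genes that burn fatty acids fell as well, in 13 of 30 against 2 that rose (8 and 2 without control 10 h replicate 1). Hadh, an enzyme of beta-oxidation, had 596, 418 and 374 on the NCFM arrays, against 2020 and 2255 on the control arrays. Acadm, the medium-chain dehydrogenase, had 1046, 658 and 686 with NCFM, against 2110 and 2244 in control cells. Ppargc1b, a coactivator of mitochondrial genes, had 244, 334 and 277 with NCFM, against 1038 and 1029 in control cells. The changes were -2.24 ± 0.17 (SE), adjusted p = 6.15e-06 for Hadh, -1.48 ± 0.21 (SE), adjusted p = 0.000401 for Acadm and -1.87 ± 0.33 (SE), adjusted p = 0.00147 for Ppargc1b. Acadl, the long-chain dehydrogenase, went the other way at 0.60, a call lost after spike-in centring (adjusted p = 0.0768), and the entry enzyme Cpt1a was not called at -0.46 (adjusted p = 0.0096 under the block). The medians of the 6 lists from ribosome biogenesis to fatty acid oxidation were below 0 under the deposited, quantile and spike-in scaling, and those of the ADP-ribosylation and Schlafen lists above 0.

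**Figure D2:**
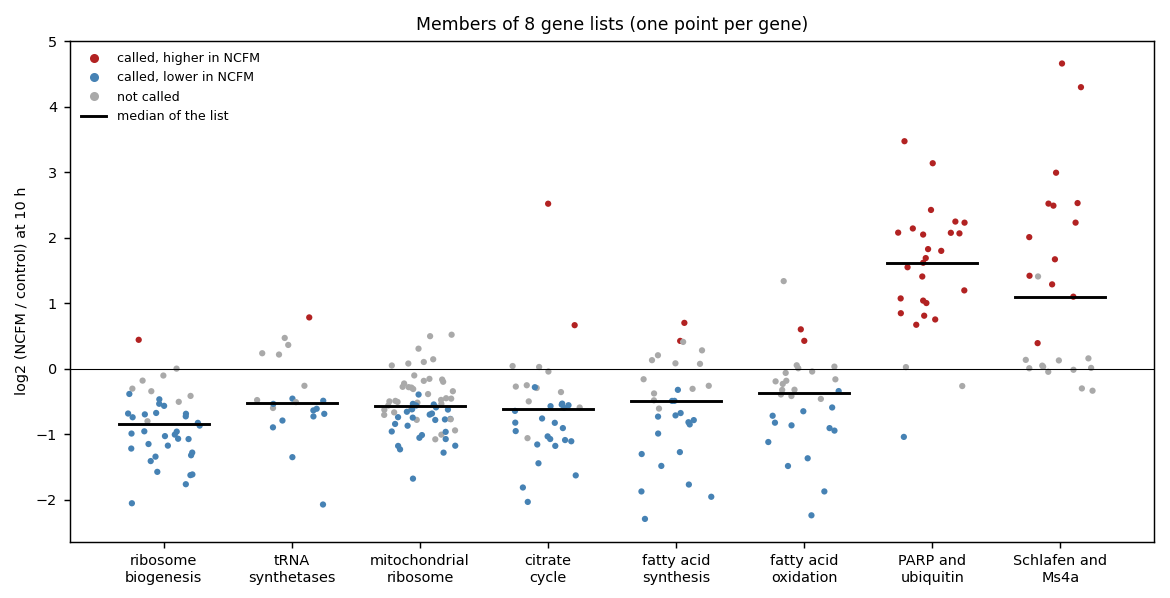
Change on the log2 scale (NCFM over control at 10 h, vertical) of each measured gene of 8 lists, with called genes in red (higher) or blue (lower), other genes in grey and the median as a bar. The medians run from -0.84 for ribosome biogenesis to 1.62 for the ADP-ribosylation and ubiquitin list. In the list marked citrate cycle, which also holds pyruvate entry and itaconate genes, Acod1 stands alone above the others at 2.52.

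Of 36 glycolysis and hypoxia genes 8 fell and 2 rose (27.8% called, near the 24.7% of all genes). With the replicate number as a block the counts were 8 higher and 9 lower. Without NCFM 10 h replicate 1 they were 5 higher and 5 lower, and with its replicate 2 left out 2 and 5. Leaving out control 10 h replicate 1 gave 2 and 3, and its replicate 2 gave 3 and 5. Hk3, a hexokinase of myeloid cells, had 3320, 6134 and 6675 on the NCFM arrays, against 1443 and 1708 on the control arrays. It rose by 1.71 ± 0.25 (SE), adjusted p = 0.000406, and the glucose transporter gene Slc2a6 by 1.05. Ldha, Pgk1 and Slc2a1 were not called, at -0.04, -0.07 and 0.09.

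Of 32 cytosolic and mitochondrial chaperone genes 8 rose and 9 fell, and without control 10 h replicate 1 the counts were 5 and 2. They were 7 and 4 when either NCFM 10 h replicate 2 or 3 was left out. Beside Hspa1a and Hspa1b, the cochaperone Dnaja1 had 7705, 6528 and 7728 on the NCFM arrays, against 3349 and 3308 on the control arrays. Hsph1, which recharges Hsp70, had 1537, 1349 and 1508 with NCFM, against 885 and 785 in control cells. Hspa9, the mitochondrial Hsp70, had 803, 728 and 776 with NCFM, against 1531 and 1234 in control cells. The 2 cytosolic genes were higher and Hspa9 lower on every NCFM array, at 1.13 ± 0.11 (SE), adjusted p = 2.35e-05 for Dnaja1, 0.81 ± 0.14 (SE), adjusted p = 0.00142 for Hsph1 and -0.84 ± 0.15 (SE), adjusted p = 0.00148 for Hspa9. Constitutive Hspa8 and the classical heat shock genes Hspb1, Dnajb1 and Bag3 were not called, at 0.15, 0.22, 0.07 and -0.15. Under the block Hspb1 was called (adjusted p = 0.0274). The pair of heat shock units was in 11 of 36 windows of the chaperone list (30.6%), against 6.3% of all windows. The NF-kB letters were in 33.3% of the same windows, against 20.4% of all.

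Of 31 iron handling genes 6 rose and 4 fell, the falls being below the 16.5% of all genes. Hamp, or hepcidin, the peptide that makes cells destroy the iron exporter, had 707, 1282 and 1027 on the NCFM arrays, against 137 and 110 on the control arrays. Tfrc, the transferrin receptor for iron uptake, had 314, 239 and 219 with NCFM, against 1618 and 1200 in control cells. Slc11a2, an endosomal iron transporter, had 770, 1205 and 1312 with NCFM, against 348 and 370 in control cells. Hamp and Slc11a2 were above and Tfrc below control on all arrays, with changes of 2.99 ± 0.27 (SE), adjusted p = 1.83e-05, 1.57 ± 0.27 (SE), adjusted p = 0.00127 and -2.45 ± 0.20 (SE), adjusted p = 1e-05, while dimmer probe sets of Tfrc gave -0.41 and -0.03. Hfe, which binds the transferrin receptor, changed by -1.80. The ferroxidase gene Cp and Lcn2, which withholds bacterial iron carriers, rose by 1.76 and 1.25. The exporter gene Slc40a1 and the ferritin gene Fth1 were not called, at -0.04 and 0.18.

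In the prostanoid and leukotriene pathway 6 of 26 genes rose and 9 fell. Pla2g4a, which frees arachidonic acid, had 1072, 2081 and 2228 on the NCFM arrays, against 669 and 673 on the control arrays. Ptges, the terminal synthase, had 911, 3091 and 3632 with NCFM, against 223 and 286 in control cells. They rose by 1.35 ± 0.30 (SE), adjusted p = 0.00595 for Pla2g4a and 3.10 ± 0.62 (SE), adjusted p = 0.0032 for Ptges, next to Ptgs2 above. Fitted on the 5 arrays alone, Pla2g4a had an adjusted p of 0.0505. Tbxas1, the thromboxane synthase, had 576, 647 and 520 with NCFM, against 2032 and 2014 in control cells. It was 3.5-fold lower (log2 change of -1.81 ± 0.16 (SE), adjusted p = 1.66e-05). On the leukotriene branch Alox5ap, which hands arachidonic acid to 5-lipoxygenase, changed by -1.53. Daglb, which makes the endocannabinoid 2-AG, and the epoxide hydrolase gene Ephx1 changed by -1.91 and -1.63.

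**Figure D3:**
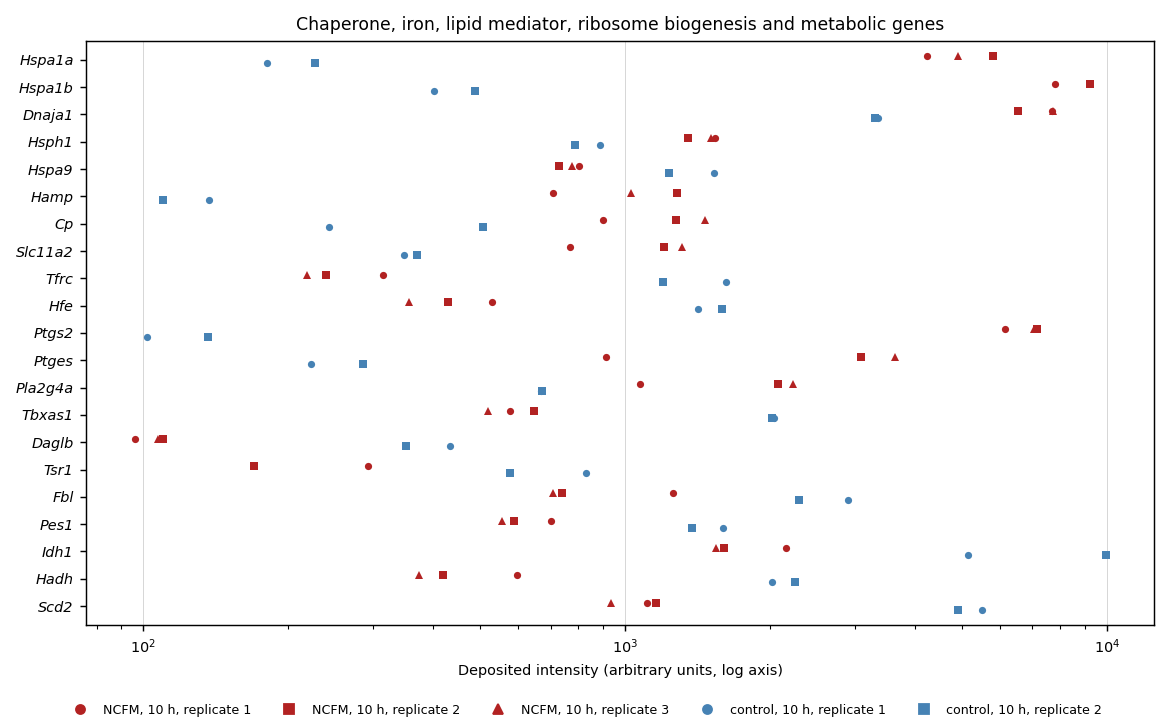
Intensity (horizontal, log axis, arbitrary units) of 21 chaperone, iron, lipid mediator, ribosome biogenesis and metabolic genes on each array, NCFM in red above control in blue. NCFM points lie right of control for genes such as Ptges (911 to 3632 against 223 and 286) and left of control for genes such as Tbxas1 (520 to 647 against 2032 and 2014).

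Arginine, biopterin and related enzyme genes rose in 5 of 27 and fell in 8 (3 and 2 without control 10 h replicate 1, and 8 and 8 with the replicate number as a block). Nos2, the inducible nitric oxide synthase, and Gch1, which starts synthesis of its cofactor, rose by 3.37 and 2.06. Qdpr, which recycles that cofactor, had 2684, 2505 and 2269 on the NCFM arrays, against 6263 and 6361 on the control arrays. It was lower on every NCFM array, at -1.35 ± 0.14 (SE), adjusted p = 5.39e-05. Nt5c3, a pyrimidine nucleotidase, rose by 2.95 and Nadk, the NAD kinase, changed by -1.33.

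The integrated stress response and amino acid transport genes were called higher in 9 of 30 and lower in 9 (3 and 4 with control 10 h replicate 1 left out, and 8 and 5 with NCFM 10 h replicate 3 left out). Slc7a11, the cystine importer, had 2012, 2630 and 2048 on the NCFM arrays, against 508 and 674 on the control arrays. Slc1a5, a glutamine transporter, had 198, 200 and 187 with NCFM, against 823 and 488 in control cells. The 2 transporters ran in opposite directions, 1.92 ± 0.35 (SE), adjusted p = 0.00201 for Slc7a11 and -1.70 ± 0.20 (SE), adjusted p = 0.000111 for Slc1a5. Of the kinases that can start the response, Eif2ak2, the double-stranded RNA sensor PKR, rose by 1.44. Eif2ak3, the PERK kinase of the endoplasmic reticulum, fell, with a change of -1.19. Atf4, Asns and Trib3 were not called, at 0.21, 0.08 and 0.05. Genes of serine, glycine and folate metabolism fell in 9 of 25 and rose in 1 (3 and 1 without control 10 h replicate 1). Gcsh, of the glycine cleavage system, had 324, 209 and 213 with NCFM, against 1862 and 1262 in control cells. It changed by -2.65 ± 0.22 (SE), adjusted p = 8.12e-06, while Mthfd2, a mitochondrial folate enzyme, rose by 1.25.

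Transcription factors of myeloid cells were called higher in 9 of 47 and lower in 11 (7 and 6 without control 10 h replicate 1, and 14 and 13 with the replicate number as a block). Mxd1, a MYC antagonist, had 3003, 4877 and 5459 on the NCFM arrays, against 643 and 608 on the control arrays. Batf2, an interferon-induced AP-1 partner, had 980, 1585 and 1733 with NCFM, against 380 and 407 in control cells. Cebpa, which maintains the granulocyte and monocyte programme, had 254, 423 and 349 with NCFM, against 1026 and 1245 in control cells. Mxd1 and Batf2 rose and Cebpa fell, at 2.78 ± 0.26 (SE), adjusted p = 2.44e-05 for Mxd1, 1.82 ± 0.23 (SE), adjusted p = 0.000144 for Batf2 and -1.76 ± 0.39 (SE), adjusted p = 0.00586 for Cebpa. Batf rose by 1.88 and Gfi1 by 1.26, while Klf2, Cebpd and Id3 changed by -1.17, -1.22 and -0.98. The dendritic factors Irf4, Irf8, Zbtb46 and Spi1 were not called, at -0.03, 0.78, 0.77 and -0.24. Under the block Zbtb46 was called (adjusted p = 0.0103).

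Arrestin and growth arrest genes fell in 12 of 34 and rose in 3 (7 and 3 without control 10 h replicate 1, and 13 and 7 with the replicate number as a block). Gadd45b, a stress-induced activator of p38 signalling, had 7807, 7901 and 7301 on the NCFM arrays, against 1606 and 1901 on the control arrays. Sesn1, a p53 target that restrains mTORC1, had 261, 235 and 227 with NCFM, against 574 and 702 in control cells. Their changes were 2.13 ± 0.17 (SE), adjusted p = 7.65e-06 for Gadd45b and -1.40 ± 0.24 (SE), adjusted p = 0.00137 for Sesn1, and Mdm2, the ligase for p53, rose by 1.34. Genes for histone and DNA modifying enzymes fell in 14 of 51 and rose in 5, and 9 fell when replicate 2 of either 10 h group was left out, and 7 without control 10 h replicate 1. Setdb2, an interferon-induced H3K9 methyltransferase, had 992, 1220 and 1438 with NCFM, against 543 and 533 in control cells. It rose by 1.16 ± 0.20 (SE), adjusted p = 0.00148, and Tet2, which oxidises methylcytosine, by 0.71. Hdac5 and the arginine methyltransferase gene Prmt5 fell, with changes of -1.10 and -1.11.

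Lysosomal genes fell in 12 of 59 and rose in 4, near the share of all genes, and leaving out NCFM 10 h replicate 3 gave 9 and 2 (12 and 1 for control 10 h replicate 1). With the replicate number as a block 21 fell and 7 rose. Manba, a beta-mannosidase, had 251, 243 and 212 on the NCFM arrays, against 947 and 1003 on the control arrays. Gusb, the beta-glucuronidase, had 1307, 1282 and 1317 with NCFM, against 3898 and 3684 in control cells. They changed by -2.05 ± 0.12 (SE), adjusted p = 1.19e-06 for Manba and -1.54 ± 0.12 (SE), adjusted p = 5.78e-06 for Gusb, and Pla2g15, a lysosomal phospholipase, by -1.38. The cathepsin genes Ctsb, Ctsd, Ctsl and Ctss were not called, at 0.46, -0.07, 0.49 and 0.00. Under the block Ctsb and Ctsl were called (adjusted p = 0.03 and 0.0265).

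Of 18 circadian clock genes 1 was called, Hlf at 0.16 (adjusted p = 0.0417), and that call ended under the block (0.0616) and when any 10 h array but NCFM replicate 1 was left out, as well as NCFM 4 h replicates 1 or 2, control 4 h replicate 2 or NCFM 18 h replicates 2 or 3. After spike-in centring its change was -0.09. Under the block 2 clock genes fell. Of 17 MHC class II presentation genes 1 rose and 2 fell (2 and 3 with the block), and none rose with any 1 of the 5 arrays left out. Of 41 actin cytoskeleton and podosome genes 4 rose and 5 fell (2 and 5 without control 10 h replicate 2, and 6 and 9 with the replicate number as a block). In the unfolded protein response of the endoplasmic reticulum 3 of 29 rose and 2 fell, and the sensor and chaperone genes Xbp1, Hspa5 and Atf6 were not called, at -0.53, 0.58 and 0.33. The number that rose there was 1 when NCFM 10 h replicate 3 or either control 10 h array was left out. Constitutive proteasome subunits rose in 6 of 35 and fell in 1 (5 and 4 without NCFM 10 h replicate 1, and 9 and 2 with the block). The shares called in these lists, in order, were 5.56%, 17.6%, 22%, 17.2% and 20%, each below the 24.7% of all genes. These shares pool both directions. In the proteasome list the 6 of 35 that rose are a larger share than the 8.21% of all genes, and the 1 that fell a smaller share than the 16.5%.

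**Figure D4:**
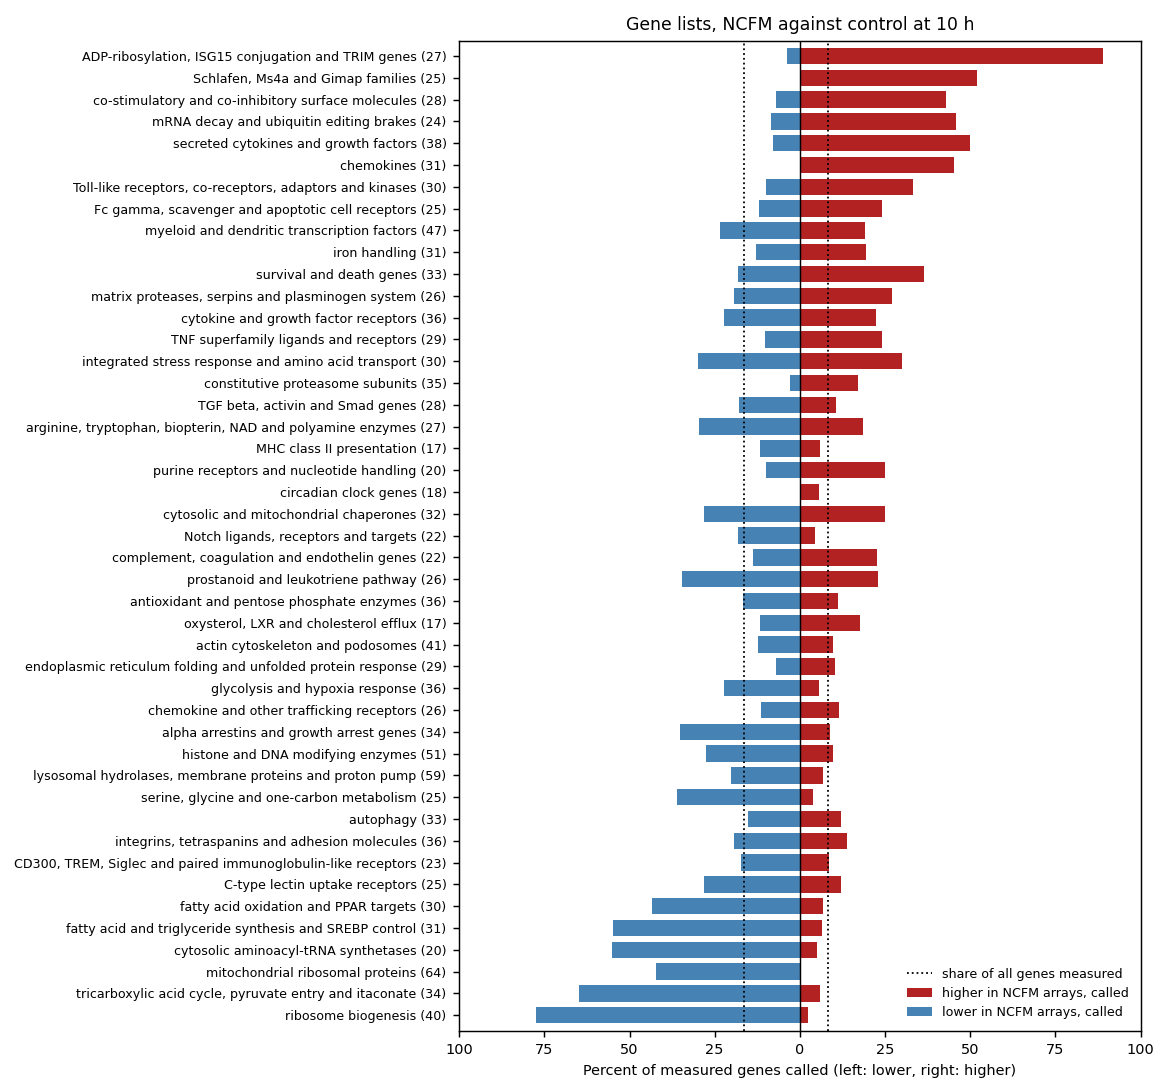
Percent of the measured genes of each of 45 lists that were called lower (blue, left) or higher (red, right) in NCFM cells, ordered by the median change, with the number measured in brackets and dotted lines at the shares of all genes (16.5% and 8.21%). The ADP-ribosylation, ISG15 and TRIM list has the widest red bar, 24 of 27, and ribosome biogenesis the widest blue bar, 31 of 40. The lists were chosen with earlier results of these data known.

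Whether the effect at 10 h differed from that at the other times was tested as a difference of effects, using the 3 NCFM and 3 control arrays at 4 h and the 3 and 2 at 18 h. Between 10 h and 4 h, 92 genes differed (0.506%), of which the effect at 10 h was higher in 36 (0.198%) and lower in 56 (0.308%), and 1911 had an unadjusted p under 0.05. Between 10 h and 18 h 1 gene differed, Asb13 (0.0055%), and 1358 had an unadjusted p under 0.05. Leaving out 1 of the 16 arrays gave 12 to 180 genes for the first difference and 1 to 30 for the second. With the replicate number as a block they were 457 and 82. After spike-in centring they were 9746 and 2. Of those 9746 the effect at 10 h was higher in 44 and lower in 9702, with a median difference of -0.48 over all genes. The count and the balance of directions for 4 h thus depend on the scaling.

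Mrc1 is the gene among the 12 largest differences from 4 h whose call held with each of the 16 arrays left out. Its effect was -0.61 ± 0.16, -2.62 ± 0.18 and -3.58 ± 0.18 at 4, 10 and 18 h, and the difference of 10 h from 4 h was -2.01 ± 0.25 (SE), adjusted p = 0.00854. With the percentile 5 of each array subtracted it was -2.44, adjusted p = 0.103. Asb13, a substrate receptor of a ubiquitin ligase, had 607, 666 and 659 on the NCFM arrays, against 258 and 254 on the control arrays. Its effect was 0.75 ± 0.06, 1.33 ± 0.07 and 0.29 ± 0.07 at the 3 times, so that 10 h was the highest of the 3 as deposited. The difference of 10 h from 4 h was 0.58 (adjusted p = 0.0218). It was 0.09 after spike-in centring (adjusted p = 0.637) and 0.28 with the mean of probe sets (adjusted p = 0.674). Nor was it called with only the groups compared (0.0553) or with the block and only arrays numbered 1 and 2 (0.132). The difference of 10 h from 18 h was 1.04 (adjusted p = 0.00198), and it held with each array left out. It was not called after spike-in centring (0.80, adjusted p = 0.143) or with the mean of probe sets (1.29, adjusted p = 0.102). Against the mean of the effects at 4 h and 18 h the Asb13 effect was again the only one to differ (0.0055%, with 1157 at an unadjusted p under 0.05). Its adjusted p was 0.00545, or 0.0788 without control 10 h replicate 1. It was 0.0673 after spike-in centring and 0.24 with the mean of probe sets. With the block and only arrays numbered 1 and 2 it was 0.147, and with only arrays numbered 2 and 3 it was 0.0899.

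For the genes that follow, the call ended without control 10 h replicate 1. Hamp had effects of 0.35 ± 0.24, 2.99 ± 0.27 and 3.51 ± 0.27 at 4, 10 and 18 h, a difference of 10 h from 4 h of 2.65 ± 0.37 (SE), adjusted p = 0.0125, or 0.0572 without that array. Hspa1a had 1.36 ± 0.31, 4.61 ± 0.34 and 3.69 ± 0.34 at the 3 times, a difference of 3.25 ± 0.46 (SE), adjusted p = 0.0152. Its adjusted p was 0.0992 without control 10 h replicate 1, and with control 4 h replicates 2 or 3 left out in turn it was 0.0545 and 0.0514. For Hspa1b the difference was 2.63 ± 0.36 (SE), adjusted p = 0.0125, or 0.0833 without control 10 h replicate 1. Edn1, the vasoconstrictor endothelin 1, had effects of 2.68 ± 0.17, 0.74 ± 0.19 and 0.29 ± 0.19, and its difference was -1.93 ± 0.25 (SE), adjusted p = 0.0125, or 0.0695 without that array.

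Ifnb1, the interferon beta gene, had an intensity of 567, 249 and 308 on the NCFM arrays, against 137 and 148 on the control arrays. Its effects were 3.43 ± 0.23, 1.30 ± 0.25 and 0.77 ± 0.25, and the difference of 10 h from 4 h was -2.13 ± 0.34 (SE), adjusted p = 0.0243. That call ended without NCFM 4 h replicate 2 (0.0575), NCFM 10 h replicate 3 (0.0669), control 4 h replicate 2 (0.0706), control 4 h replicate 3 (0.0637) or control 10 h replicate 1 (0.105). For Tfrc the difference was -1.89 ± 0.27 (SE), adjusted p = 0.0178, and the call ended without NCFM 10 h replicate 2 (0.0526), control 4 h replicate 2 (0.0545), control 4 h replicate 3 (0.0529) or control 10 h replicate 1 (0.103). Plat, the tissue plasminogen activator, had effects of 0.84 ± 0.19, 2.64 ± 0.21 and 2.24 ± 0.21, a difference of 1.81 ± 0.28 (SE), adjusted p = 0.0229. It was not called without NCFM 4 h replicate 2 (0.0504), NCFM 10 h replicate 2 (0.0542), NCFM 10 h replicate 3 (0.0669), control 4 h replicate 2 (0.0706), control 4 h replicate 3 (0.0529) or control 10 h replicate 1 (0.112).

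The remaining 4 of the 12, Cnn3, Rnf225, Cited2 and Emilin2, had differences of 2.59 ± 0.48 (SE), adjusted p = 0.0379 for Cnn3, 1.91 ± 0.34 (SE), adjusted p = 0.032 for Rnf225, -1.83 ± 0.32 (SE), adjusted p = 0.0317 for Cited2 and -1.75 ± 0.30 (SE), adjusted p = 0.03 for Emilin2. Each lost its call without NCFM 4 h replicate 2, NCFM 10 h replicate 2 or 3, control 4 h replicate 2 or 3, or control 10 h replicate 1, and the last gave the highest values, 0.11 for Cnn3, 0.175 for Rnf225, 0.198 for Cited2 and 0.198 for Emilin2. The calls of Cnn3, Rnf225 and Emilin2 also ended without NCFM 4 h replicate 3, those of Cnn3, Rnf225 and Cited2 without control 4 h replicate 1, and those of Cnn3 and Rnf225 without control 10 h replicate 2. Further arrays that ended a call were NCFM 10 h replicate 1 and NCFM 18 h replicate 2 for Cnn3, NCFM 4 h replicate 1 for Rnf225 and NCFM 18 h replicate 3 for Cited2.

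Among the lists, ribosome biogenesis genes fell in 4, 31 and 32 of 40 at 4, 10 and 18 h, with median changes of -0.23, -0.84 and -1.01. Genes of the list for the citrate cycle, pyruvate entry and itaconate fell in 8, 22 and 18 of 34. The ADP-ribosylation list rose in 22, 24 and 20 of 27 at the 3 times. These counts come from separate tests at each time, and their differences were not tested.

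**Figure D5:**
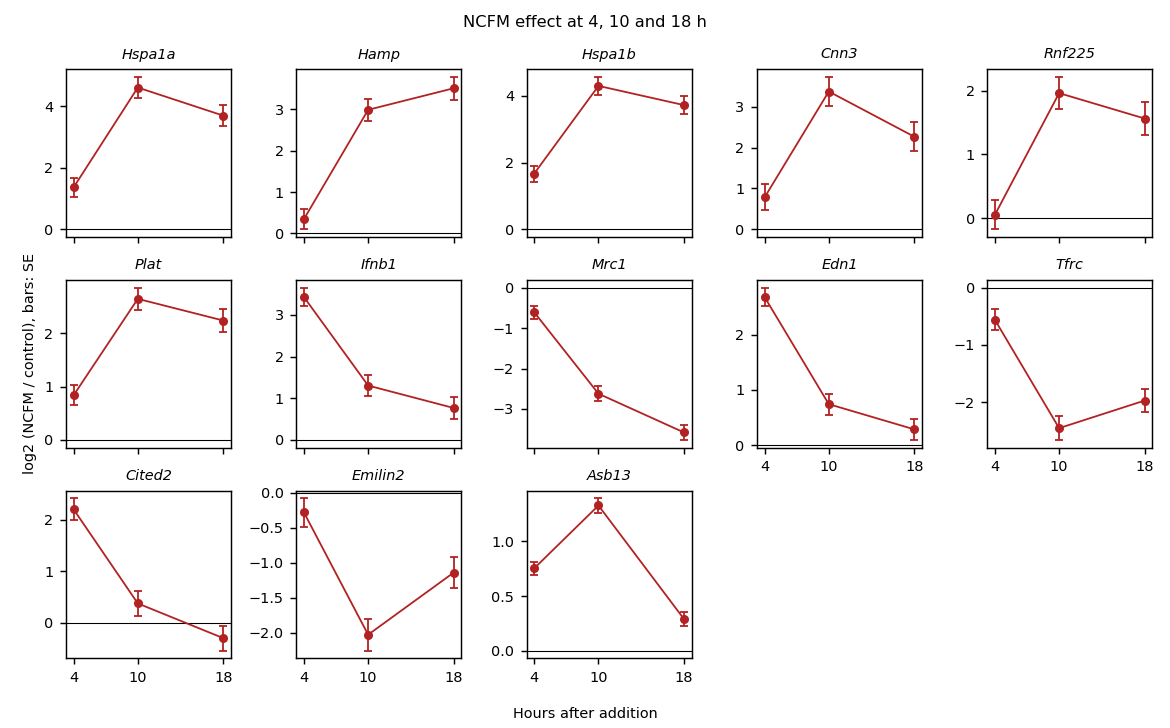
NCFM effect (log2 of NCFM over control, vertical, each panel on its own scale) at 4, 10 and 18 h for the 12 genes that differed most between 10 h and 4 h and for Asb13, with bars giving the SE. Hspa1a, Hamp and Plat are higher at 10 h than at 4 h, Ifnb1, Edn1 and Cited2 lower, and Asb13 is highest at 10 h as deposited.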

How the data were processed

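The deposited table holds an intensity per probe set, normalized between arrays by the authors, in linear whole numbers from 42 to 31573. The normalization method, the summary of probe sets and any background correction are not given in the sources used here. Intensities were taken to log2. The probe set brightest on average over the 16 arrays stood for its gene, and genes are named as in the annotation of the array, with RefSeq on GRCm38.p6 used for chromosomes and promoters. Of the other probe sets 932 name several genes, 9160 are unlisted and 64 are controls.

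Each gene was fitted in limma 3.58.1 (R 4.3.3; lmFit and eBayes) with 1 mean for each group on the 16 arrays together, which leaves 10 residual degrees of freedom, and contrasts of NCFM minus control at 10 h and of that effect minus those at 4 h, at 18 h and at their mean. P-values are two-sided, with Benjamini-Hochberg adjustment over 18193 genes, and calls are at an adjusted p under 0.05. SE is that of the fit, n = 3 NCFM and 2 control arrays at 10 h. In 5 simulated runs with 200 changed genes the 10 h fit recovered 84.2% of changes of 1 log2 unit, with 4.7% of its calls false. For the difference from 4 h these were 74.6% and 4.54%. The runs drew independent noise for each array, with nothing shared by arrays of the same number. They check the fit and do not give the error rate in these data. Nothing in the labels says that replicates came from separate animals or cultures, so p-values reflect the spread among these arrays alone, which, beside the split of Xist and Eif2s3y by array number, may be technical.

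The members and lists were chosen with earlier results of these data known. The 45 pathway and 11 cell type lists hold 1553 genes, of which 1445 were measured, 20 of them through another symbol. Named genes are the 30 largest rises and falls among calls whose groups do not overlap, the 6 largest differences in each direction, and measured list members. Only list members whose call held with each array left out, or for which the loss is stated, were named as changed. Lists are given by counts and medians, with no test.

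Array numbers were checked for pairing. All 36 pairs of arrays with the same number had deviations from their group means that correlated above 0.1 (0.192 to 0.746, median 0.42, and 0.557 and 0.454 at 10 h), while 70 pairs of different numbers ran from -0.746 to 0.726. In a group of 2 arrays one deviation is the negative of the other. Such mirrored pairs were all counted, so the pairs are not independent. By this check the numbers pair the samples, and a blocked fit on the number was an alternative. Other alternatives were other scalings, dim genes left out, all probe sets, their mean, trend and robust variance, array weights, a pseudocount of 16, percentile 5 subtracted, only the groups compared, only some array numbers, stricter calls and each array left out. The motif letters were shortened after longer forms of 3 of them had been searched and their shares seen, so the shares are descriptions only. Motifs were searched with Python 3.11.15, and figures drawn with matplotlib 3.10.9.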

Additional observations from a re-analysis of the deposited data

Results flagged for a closer look

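The following genes had an NCFM effect at 10 h that differed from the effect at another time, by the limma test of the difference itself over all genes. Set against 4 h, the effect at 10 h was higher for Hspa1a (a difference of 3.25 on the log2 scale), Hamp (2.65), Hspa1b (2.63), Cnn3 (2.59), Rnf225 (1.91), Plat (1.81) and Asb13 (0.58). It was lower for Ifnb1 (-2.13), Mrc1 (-2.01), Edn1 (-1.93), Tfrc (-1.89), Cited2 (-1.83), Emilin2 (-1.75), Gcsh (-1.55), Amz1 (-1.25), Hadh (-1.25) and Prxl2c (-0.94). Set against 18 h, it was higher for Asb13 (1.04). The report gives the arrays on which the 12 largest of these calls rest. For Gcsh, Hadh, Amz1, Prxl2c and Asb13 against 4 h, the call ended when any of 11, 12, 10, 7 and 5 of the 16 arrays was left out. NCFM 10 h replicates 2 and 3 and control 4 h replicates 2 and 3 ended all 5 of these calls. Control 10 h replicate 1 ended all but that of Prxl2c, and NCFM 4 h replicates 2 and 3 all but that of Asb13. The highest adjusted p was 0.231 for Gcsh, 0.145 for Hadh, 0.204 for Amz1 and 0.102 for Asb13, each without control 10 h replicate 1, and 0.0778 for Prxl2c without NCFM 10 h replicate 3. The others that ended a call were NCFM 4 h replicate 1 and NCFM 18 h replicate 3 (Gcsh and Hadh), NCFM 18 h replicate 2 and control 4 h replicate 1 (Gcsh, Hadh and Amz1), and control 10 h replicate 2 (Hadh, Amz1 and Prxl2c). No cause was tested.

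Probe sets that name no single gene are outside the comparison, and 977 of 10092 passed the same test at 10 h (9.68%), 510 higher and 467 lower in NCFM cells. Among probe sets that name 1 gene the share was 20.6%.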

How the results depend on the processing

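The count of genes called at 10 h was 4488, and leaving out each of the 16 arrays gave 2134 to 4755, with 674 to 1584 higher and 1460 to 3220 lower. All probe sets naming 1 gene gave 7431 calls (2545 higher, 4886 lower), an adjusted p under 0.01 gave 2585 (749 and 1836), and a minimum change of 1 log2 unit 1127 (477 and 650). Spike-in centring gave 646 higher and 5328 lower, and fitting only the groups compared 935 higher. The difference from 4 h, 92 genes, was 12 to 180 with an array left out. It was 9746 after spike-in centring (44 higher and 9702 lower), 55 with trend and robust variance and 419 with array weights. It was 309 with only arrays numbered 2 and 3, 7 under 0.01 and 42 with the minimum change. The difference from 18 h, 1 gene, was 1 to 30 with an array left out, 2 after spike-in centring, 0 with the mean of probe sets (with 1358 below an unadjusted 0.05 in the limma fit reported), 33 with only arrays 2 and 3, and 4 over all probe sets. The difference from the mean of both times, 1 gene, was 0 to 27 with an array left out, 2 after quantile normalization, 80 after spike-in centring, 0 with the mean of probe sets and 0 with the minimum change. Fitting only the groups compared gave no value for it.

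With the replicate number as a block the 10 h fit called 5666 genes, and the 3 differences had 457, 82 and 18. With the block and only arrays numbered 1 and 2 they had 22, 12 and 0. The block ended the call of Hlf among the 215 named genes called at 10 h, and called 8 of the 55 named as not called, for which the report gives the value. Of the 215, 214 kept their direction under the 13 alternatives other than leaving out an array, and 208 stayed called under each. The exceptions were Hlf, which was -0.09 (adjusted p = 0.479) after spike-in centring and not called under 4 further alternatives besides the block, Acadl and Edn1 after spike-in centring (adjusted p = 0.0768 and 0.0563), and Asgr2, Ifnb1, Itgax and Pla2g4a with only the groups compared (0.0723, 0.0637, 0.0716 and 0.0505). Nrep lost its call without NCFM 10 h replicates 2 or 3 in turn (0.0633 and 0.0816) and without control 10 h replicate 1 (0.279), and Edn1 without either control array (0.059 and 0.0738). Among the 12 largest differences from 4 h, those of Cnn3, Plat and Mrc1 were not called with percentile 5 subtracted (0.0962, 0.0597 and 0.103), those of Hamp, Rnf225, Ifnb1, Cited2 and Emilin2 with the block and only arrays numbered 1 and 2 (0.0825, 0.0938, 0.15, 0.136 and 0.146), and that of Ifnb1 with only the groups compared (0.0553). The causes were not tested. Dim probe sets limit folds, since the control values of several rises are near the background of the arrays.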

Other observations

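Several groups not described above held single genes with large changes at 10 h. Among 22 complement, coagulation and endothelin genes, Procr, the endothelial protein C receptor, had 7795, 10209 and 8829 on the NCFM arrays, against 714 and 1024 on the control arrays. Cfb, complement factor B, had 5272, 11247 and 12069 with NCFM, against 485 and 1636 in control cells. Both rose, by 3.38 ± 0.26 (SE), adjusted p = 5.6e-06 for Procr and 3.33 ± 0.60 (SE), adjusted p = 0.00177 for Cfb, while properdin, Cfp, changed by -1.14. Among 26 matrix proteases and serpins, Plat rose by 2.64, the cysteine protease inhibitor gene Cst7 by 2.32 and Serpinb9, an inhibitor of granzyme B, by 1.95. Vcam1, an integrin ligand, had 1115, 1074 and 809 with NCFM, against 262 and 199 in control cells. It rose by 2.12 ± 0.15 (SE), adjusted p = 4.42e-06, with Alcam at 1.48, while Itga1 and Tspan4 changed by -1.20 and -1.28.

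Of 30 Toll-like receptor pathway genes 10 rose and 3 fell (6 and 1 without control 10 h replicate 1). Tlr3, the receptor for double-stranded RNA, had 794, 1375 and 1982 on the NCFM arrays, against 167 and 217 on the control arrays. Nod1, a sensor of peptidoglycan, had 687, 945 and 1080 with NCFM, against 281 and 302 in control cells. They rose by 2.76 ± 0.42 (SE), adjusted p = 0.000623 for Tlr3 and 1.61 ± 0.21 (SE), adjusted p = 0.000221 for Nod1, and Irak1, a kinase below the receptors, changed by -1.27. The nucleotide genes Samhd1, Pnp and P2ry14 rose by 1.55, 1.32 and 1.43, and Adk, adenosine kinase, and Uck2, a uridine and cytidine kinase, changed by -1.71 and -1.09. Of 24 genes that brake inflammation through mRNA decay, ubiquitin editing or inhibition of NF-kB, 11 rose and 2 fell (5 and 2 without control 10 h replicate 1). Nfkbiz and Tnfaip3, which encodes the ubiquitin-editing A20, rose by 2.08 and 1.71, and Zfp36l2, which directs mRNA decay, changed by -1.87. In the control of lipid efflux Nr1h3, the liver X receptor, rose by 0.83. Il6st, the shared receptor chain of the interleukin-6 family, and Il18rap changed by -1.08 and -0.77.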
